A study of Mus musculus with 6 samples.

Results

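The genes described here handle bile acids in the last part of the small intestine, the ileum, and were measured in mouse colon. They are 8 of the 25339 genes in the deposited table, matched by symbol: Fabp6, Slc10a2, Slc51a, Slc51b, Nr1h4, Nr0b2, Fgf15 and Gpbar1. All 8 were found. RNA of colon was sequenced from mice given the solvent DMSO (3 libraries) or lenvatinib (3 libraries), a kinase inhibitor taken by mouth whose targets are receptors for growth factors of blood vessels and other tissues. The title of the series is about colitis and the traffic of B cells under this drug. Strain, age, sex, dose, duration, part of the colon and whether colitis was induced are not given in the labels used here. The genes were chosen with the difference between these 2 groups in view, so their own differences are given as a description, without a test. Of them 3 lay near 0 and 5 had a mean above 1 FPKM, the unit of the table (sequenced fragments scaled to the length of the gene and the size of the library, which allows levels of genes of different length to be compared). Sets of 3 values are always given in the order of libraries 1, 2 and 3.

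Bile acids are made from cholesterol in the liver, released into the gut to dissolve fat, and largely taken back up in the ileum. There Slc10a2 carries them in from the lumen, Fabp6 binds them inside the enterocyte, and the Slc51a and Slc51b proteins together form the exporter to the blood. The nuclear receptor FXR, encoded by Nr1h4, senses them and turns on Fabp6, Slc51a, Slc51b, Nr0b2 and Fgf15. The hormone encoded by Fgf15 then lowers bile acid synthesis in the liver. The colon receives the bile acids that escape the ileum, and in the textbook picture it has the exporter and FXR but little Slc10a2, Fabp6 or Fgf15.

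The libraries held 37660528 to 39287783 reads in genes, recovered from the steps of the FPKM values. Libraries 2 and 3 of each group were much alike: their median squared difference, over genes with more than 9 reads, was 2.53 (DMSO) and 2.29 (lenvatinib) times counting noise, against 10.1 to 25.2 times for all other pairs. The labels number the libraries as biological replicates and do not name animals, so every SD and p-value here reflects only how these libraries vary, which may be partly technical. DMSO 1 also stood apart by sex-linked transcripts (Xist 0.00147 FPKM, against 15.9 to 19.8 FPKM in the other 5 libraries, and Ddx3y 6.54 FPKM, against 0). Of the markers of the labelled tissue, Car1, a colonocyte carbonic anhydrase, was at 7590 to 10357 FPKM. Hoxb13, Hoxd12 and Hoxd13, which mark the hindmost gut, were at or below 0.0505 FPKM in every library, while Hoxa13, of the same position, was at 0.233 to 0.728 FPKM.

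The stretches upstream of the genes for the binding protein and the transporters are shown first, because these 4 genes form the path of a bile acid through the cell and their levels differed between the groups by very unequal amounts. Each is the 250 bases before the RefSeq start (build GRCm38.p6, another build than the GRCm39 of the submitters' processing notes), read 5′ to 3′ on the gene's own strand, which is the minus strand for all 4. They lie at chr11:43601563-43601812 (Fabp6), chr8:5105288-5105537 (Slc10a2), chr16:32487880-32488129 (Slc51a) and chr9:65422774-65423023 (Slc51b). The GC content is 34.4% for Slc10a2 and 53.2 to 54.8% for the other 3, against a median of 52.4% over all windows of the table. Capitals mark the motif matches named in the paragraph on motifs.
Fabp6: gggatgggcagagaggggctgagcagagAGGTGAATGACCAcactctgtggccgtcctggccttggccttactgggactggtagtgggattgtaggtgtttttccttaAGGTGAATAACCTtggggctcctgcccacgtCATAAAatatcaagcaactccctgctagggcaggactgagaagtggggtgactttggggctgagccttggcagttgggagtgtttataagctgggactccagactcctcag
Slc10a2: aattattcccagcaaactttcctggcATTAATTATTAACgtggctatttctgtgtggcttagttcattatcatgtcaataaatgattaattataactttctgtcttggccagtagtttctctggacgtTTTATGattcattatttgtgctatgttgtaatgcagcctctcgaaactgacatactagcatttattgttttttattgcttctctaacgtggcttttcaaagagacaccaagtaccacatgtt
Slc51a: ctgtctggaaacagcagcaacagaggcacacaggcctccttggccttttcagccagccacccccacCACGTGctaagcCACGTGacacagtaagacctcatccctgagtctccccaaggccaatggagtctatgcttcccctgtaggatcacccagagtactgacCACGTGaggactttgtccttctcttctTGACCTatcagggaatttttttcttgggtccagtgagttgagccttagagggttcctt
Slc51b: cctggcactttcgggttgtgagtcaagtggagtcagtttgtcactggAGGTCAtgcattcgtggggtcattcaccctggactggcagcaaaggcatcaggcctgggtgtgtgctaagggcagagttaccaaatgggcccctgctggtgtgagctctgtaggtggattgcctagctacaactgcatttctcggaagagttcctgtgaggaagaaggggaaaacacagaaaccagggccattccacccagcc

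Motifs were searched on both strands in these windows, in those of Nr1h4, Nr0b2 and Gpbar1, and in all 32851 windows of the same length in the table, which has no entry for Fgf15. The motifs were chosen with the sequences in view. The inverted repeat that FXR binds, AGGTCA and TGACCT with any base between them, was searched with up to 2 mismatches. Fabp6 held 2 such matches, each with 2 mismatches, at 222 to 210 and at 142 to 130 bases before the start. Of all windows, 0.959% held at least 1 match and 0.0122% (4 windows) held 2 or more. No window of the other 6 genes had a match: Slc51a and Slc51b came within 3 mismatches, and Slc10a2, Nr1h4, Nr0b2 and Gpbar1 within 4. The single nuclear receptor hexamer AGGTCA, which is part of that repeat, occurred without mismatch in Slc51a, Slc51b and Nr1h4 and in 14.0% of all windows. The site of the enterocyte factor HNF1, GTTAAT and ATTAAC with any base between them and up to 2 mismatches, was found in Slc10a2 (1 mismatch, 224 to 212 bases before the start) and Nr1h4 (2 mismatches), against 1.24% of all windows. Slc51a held 3 copies of the E-box CACGTG, while 0.0609% of all windows held 3 or more, and Nr0b2 held 1 (6.02% held at least 1). The CDX motif TTTATG was found in Fabp6, Slc10a2 and Nr1h4 (10.8% of all windows), and the GATA motif AGATAA in Nr1h4 (9.99%). Such matches describe letters in these windows and do not show that a factor binds there.

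**Figure D1:**
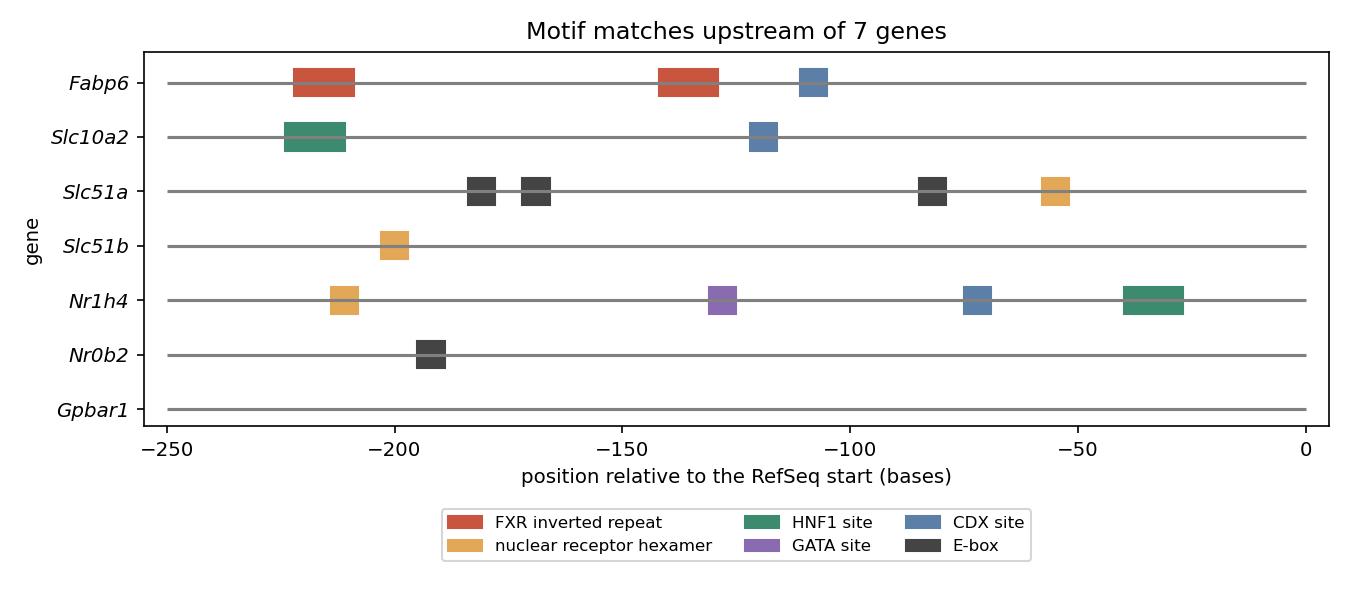
Motif matches in the 250 bases before the RefSeq start of 7 genes. The horizontal axis is the distance from the start in bases, each grey line is 1 gene, and coloured boxes are matches drawn to scale. Fabp6 alone among these 7 has the FXR inverted repeat, at 2 places, and Slc51a has 3 E-boxes.

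The binding protein gene Fabp6 showed the widest separation of the groups. The DMSO libraries had 1.44, 2.28 and 2.27 FPKM, and the lenvatinib libraries had 161, 159.8 and 148 FPKM. These levels rest on 28, 46 and 45 reads in the DMSO libraries and on 3145, 3184 and 2915 reads in the lenvatinib libraries. Every lenvatinib library was thus far above every DMSO library, and the lowest of them was 64.8 times the highest DMSO level. The means were 2.00 ± 0.477 and 156 ± 7.47 FPKM (SD, n = 3 each), a ratio of 78.2. The difference was 5.73 on the log2(FPKM + 1) scale (SE 0.146), a scale on which low genes appear to change less than they do. Within the lenvatinib group the level varied little, whereas DMSO 1 was below DMSO 2 and 3. In mean level over all 6 libraries, Fabp6 ranked 877 of the 25339 genes. In RNA of a tissue, for this gene as for those that follow, fewer cells that express it and less RNA per cell cannot be told apart.

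The gene of the uptake carrier, Slc10a2, was low in the DMSO libraries and higher with lenvatinib, at less even levels. The DMSO libraries had 2.95, 1.19 and 1.24 FPKM, from 459, 192 and 198 reads. The lenvatinib libraries had 6.68, 11.6 and 12.2 FPKM, from 1046, 1847 and 1927 reads. The groups did not overlap, but DMSO 1 was the highest DMSO library and lenvatinib 1 the lowest lenvatinib library, so these 2 lay only 2.26-fold apart. The means were 1.79 ± 1.01 and 10.1 ± 3.01 FPKM (SD, n = 3 each), a ratio of 5.65, and the log2 difference was 2.01 (SE 0.374).

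The 2 subunit genes of the exporter were well expressed in both groups. Slc51a stood at 37.1, 42.5 and 42.0 FPKM in the DMSO libraries, against 98.1, 79.6 and 73.1 FPKM in the lenvatinib libraries. Its means were 40.5 ± 2.97 and 83.6 ± 13.0 FPKM (SD, n = 3 each), and its log2 difference was 1.02 (SE 0.139). No library of one group reached into the range of the other, and lenvatinib 1 was at the top. Slc51b stood at 68.5, 65.6 and 67.5 FPKM in the DMSO libraries, against 143, 95.9 and 91.6 FPKM in the lenvatinib libraries. Its means were 67.2 ± 1.48 and 110.2 ± 28.6 FPKM (SD, n = 3 each), and its log2 difference was 0.68 (SE 0.204). The groups did not overlap here either, and lenvatinib 1 again had the highest level. The lowest lenvatinib library was 1.34 times the highest DMSO library, and the log2 difference was 0.47 without lenvatinib 1.

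Of the 2 receptors for bile acids, only the nuclear one was clearly detected. Nr1h4, which encodes FXR, stood at 32.9, 32.1 and 33.3 FPKM in the DMSO libraries, against 62.1, 54.2 and 55.5 FPKM in the lenvatinib libraries. Its means were 32.8 ± 0.595 and 57.3 ± 4.22 FPKM (SD, n = 3 each), a ratio of 1.75, and the log2 difference was 0.79 (SE 0.0611). The DMSO levels were nearly equal, and the lenvatinib libraries were all above them. Gpbar1 encodes TGR5, a bile acid receptor of the cell surface. It had 4, 1 and 0 reads in the DMSO libraries, against 0, 9 and 4 reads in the lenvatinib libraries, or at most 0.172 FPKM. The groups overlapped, and at this depth no difference was detectable.

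The 2 FXR target genes that carry the negative feedback were near 0 in both groups. Nr0b2, which encodes the repressor SHP, had 0, 0 and 2 reads in the DMSO libraries, against 1, 0 and 0 reads in the lenvatinib libraries. A count of 0 allows up to 3 reads, which is 0.0606 FPKM for this gene, and the highest level measured was 0.0400 FPKM. Fgf15 had 5, 0 and 0 reads in the DMSO libraries, against 4, 14 and 22 reads in the lenvatinib libraries. In FPKM, that was 0.0727, 0 and 0 for DMSO and 0.0577, 0.198 and 0.314 for lenvatinib. Lenvatinib 2 and 3 were above the DMSO libraries and lenvatinib 1 was below DMSO 1, so the groups overlapped. These levels were far under those of Fabp6 in the same libraries. Neither gene passed the filter on low levels, so no fold is given.

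**Figure D2:**
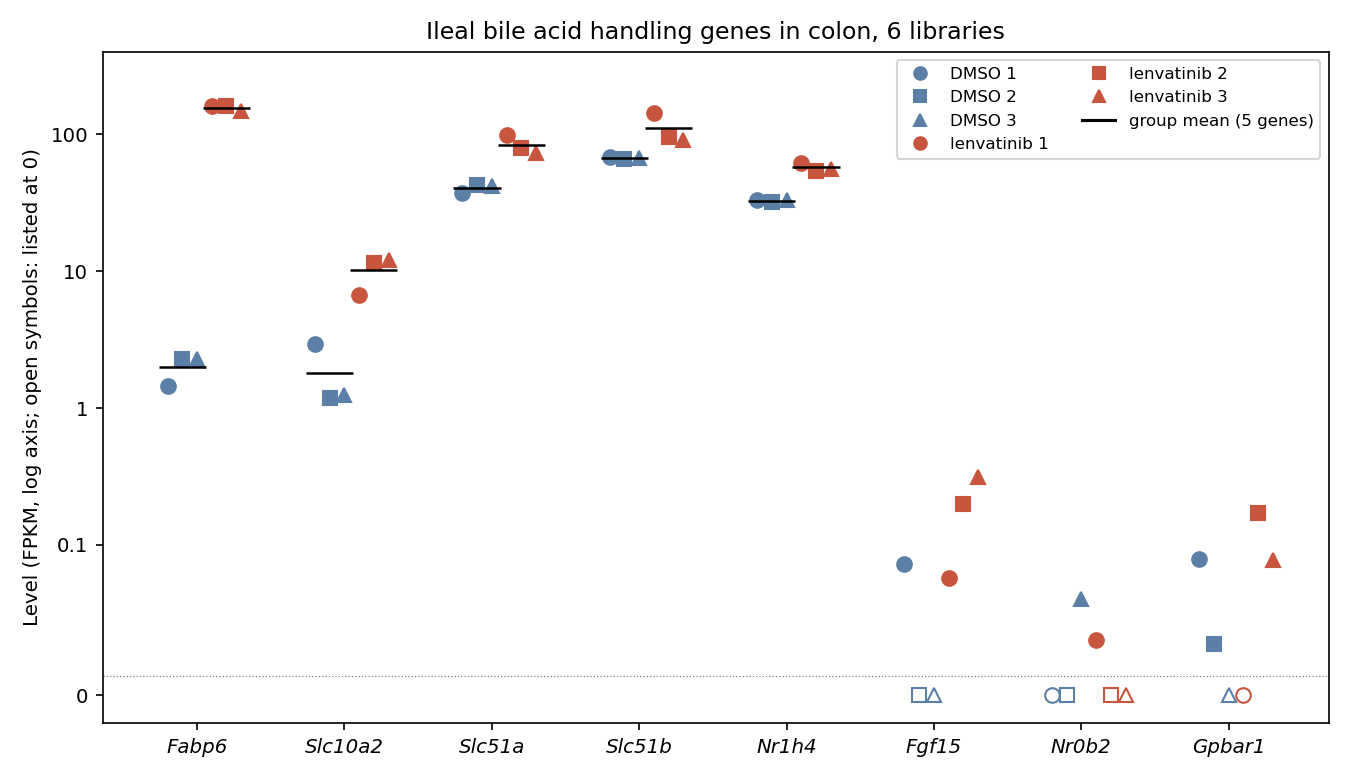
Level of each of the 8 genes in each library, in FPKM on a log axis. Blue symbols are DMSO and red symbols lenvatinib libraries, the shape gives the replicate number, black bars are group means for the 5 genes above 1 FPKM, and open symbols at the bottom are levels listed at 0. Fabp6 moves from about 2 to about 156 FPKM, and Fgf15, Nr0b2 and Gpbar1 stay at or below 0.314 FPKM everywhere.

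For 5 of the 5 genes above 1 FPKM, every lenvatinib library was above every DMSO library. The same was true of 10.0% of the 11774 genes that reached a mean of 1 FPKM. Because the 5 genes were chosen from this contrast, nothing is read from that count. The order of levels differed between the groups. In the DMSO libraries Slc51b was highest, followed by Slc51a and Nr1h4, each above the next in every library. Fabp6 and Slc10a2 came last, and their order varied among the DMSO libraries. In the lenvatinib libraries Fabp6 was highest and Slc51b, Slc51a, Nr1h4 and Slc10a2 followed, in the same order in all 3 libraries. The summed level of the 8 genes was 144 ± 1.73 FPKM with DMSO and 418 ± 47.6 FPKM with lenvatinib (SD, n = 3 each). Fabp6 made up 1.01 to 1.58% of that sum in the DMSO libraries and 34.2 to 39.8% in the lenvatinib libraries.

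The ratios between the genes within a library show which of them kept step. Slc51b stayed at 2.03 to 2.08 times Nr1h4 in the DMSO libraries and measured 2.31, 1.77 and 1.65 times Nr1h4 in lenvatinib 1 to 3. Those ratios thus lay on both sides of the DMSO values. The 2 exporter subunits had a ratio of Slc51a to Slc51b of 0.541, 0.648 and 0.621 with DMSO and of 0.685, 0.830 and 0.798 with lenvatinib. Slc51b remained the higher of the pair in all 6 libraries, by a smaller margin in each lenvatinib library. Fabp6 left this pattern: it was 0.0439 to 0.0709 times Nr1h4 with DMSO and 2.59 to 2.95 times Nr1h4 with lenvatinib. The ratio of Fabp6 to Slc10a2 went from 0.489, 1.92 and 1.82 with DMSO to 24.1, 13.8 and 12.1 with lenvatinib. In both groups library 1 was the one that differed, being lowest among the DMSO and highest among the lenvatinib libraries.

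**Figure D3:**
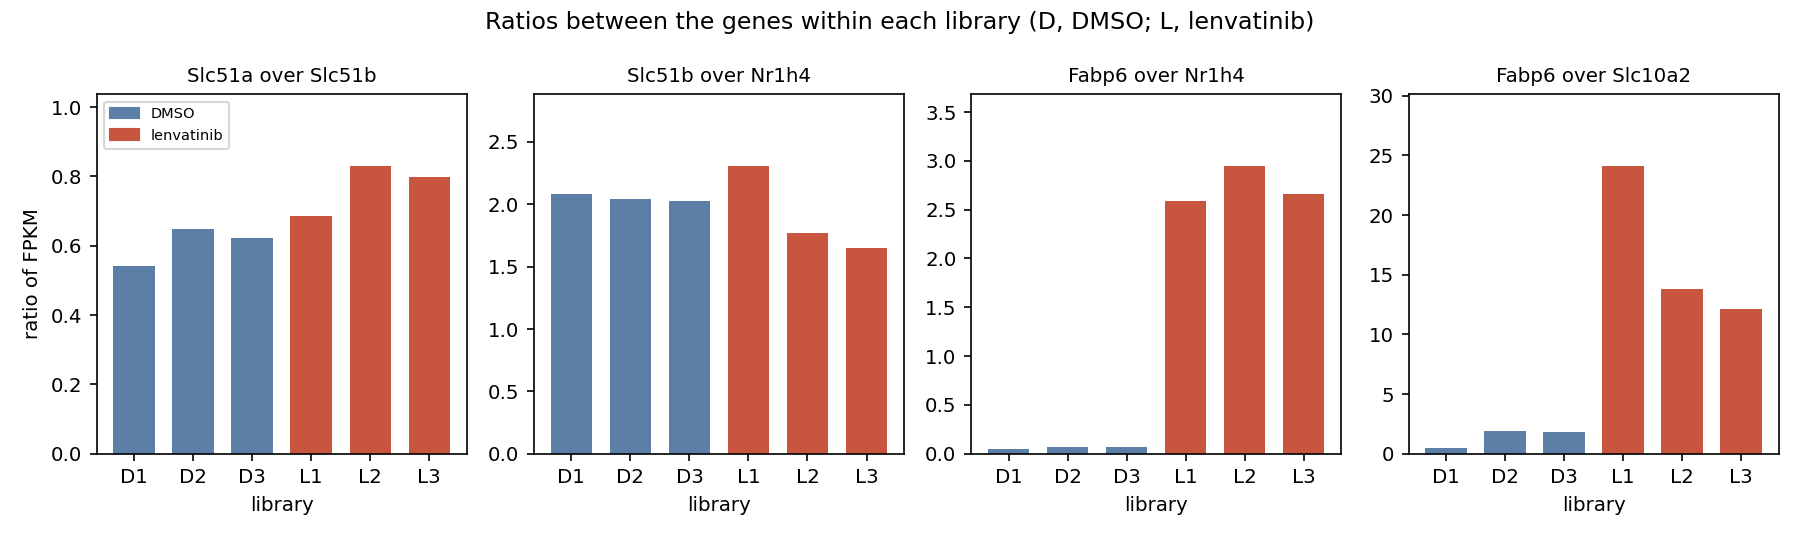
Ratios of FPKM between pairs of the genes within each library (D1 to D3, DMSO; L1 to L3, lenvatinib), 1 bar a library, axes starting at 0. The ratio of Slc51b to Nr1h4 stays between 1.65 and 2.31, while Fabp6 over Nr1h4 goes from at most 0.0709 to at least 2.59.

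The 5 genes did not share a single profile over the libraries. For each of them the 3 named genes were found whose log2(FPKM + 1) profile over the 6 libraries, centred on its mean, had the smallest root mean square difference. Libraries 2 and 3 of a group count there as separate points though they are much alike. For Fabp6 these were the Paneth cell defensins Defa22, Defa21 and Defa30 (differences of 0.44, 0.49 and 0.49), which belong to a family of almost identical copies that counting may not separate. Their DMSO means were 0.0209, 0.0201 and 0.0203 FPKM, so they reached a mean of 1 FPKM only through the lenvatinib libraries. Their nearness to Fabp6 also depends on the 1 FPKM added before the log. With 0.1 FPKM added instead, the log2 difference was 6.25 for Fabp6 and 8.63 for Defa22. The defensins were lower in lenvatinib 1 than in lenvatinib 2 and 3, while Fabp6 was not: Defa22 measured 27.2, 65.2 and 56.3 FPKM there. For Slc10a2 the nearest were the brush border peptidase gene Enpep (0.25), the defensin Defa5 (0.31) and the amino acid transporter subunit Slc7a9 (0.31). Defa5 and Slc7a9 had DMSO means of 0 and 0.102 FPKM, so both also reached 1 FPKM only through the lenvatinib libraries. Enpep measured 7.84, 14.7 and 14.2 FPKM in lenvatinib 1 to 3, with the same low first library as Slc10a2.

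The exporter and receptor genes had other neighbours, in which lenvatinib 1 was the highest library. For Slc51a they were Cebpd, a transcription factor gene (0.09), Acot1, an acyl-CoA thioesterase (0.12), and Aldoc, a glycolytic aldolase (0.14). For Slc51b they were the lipid droplet gene Plin4 (0.09), the cholesterol esterifying enzyme Soat2 (0.09) and Hrct1 (0.11). Soat2 and Hrct1 had DMSO means of 0.682 and 0.678 FPKM, so both reached a mean of 1 FPKM only through the lenvatinib libraries. For Nr1h4 they were Guca2b, which encodes uroguanylin (0.05), Acacb, an acetyl-CoA carboxylase (0.07), and Ston1, an endocytic adaptor (0.07). Guca2b stood at 21.6, 19.4 and 20.0 FPKM in the DMSO libraries, against 40.0, 35.0 and 35.9 FPKM in the lenvatinib libraries. As for Nr1h4, lenvatinib 1 was the highest library and the other 2 lenvatinib libraries were close together.

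**Figure D4:**
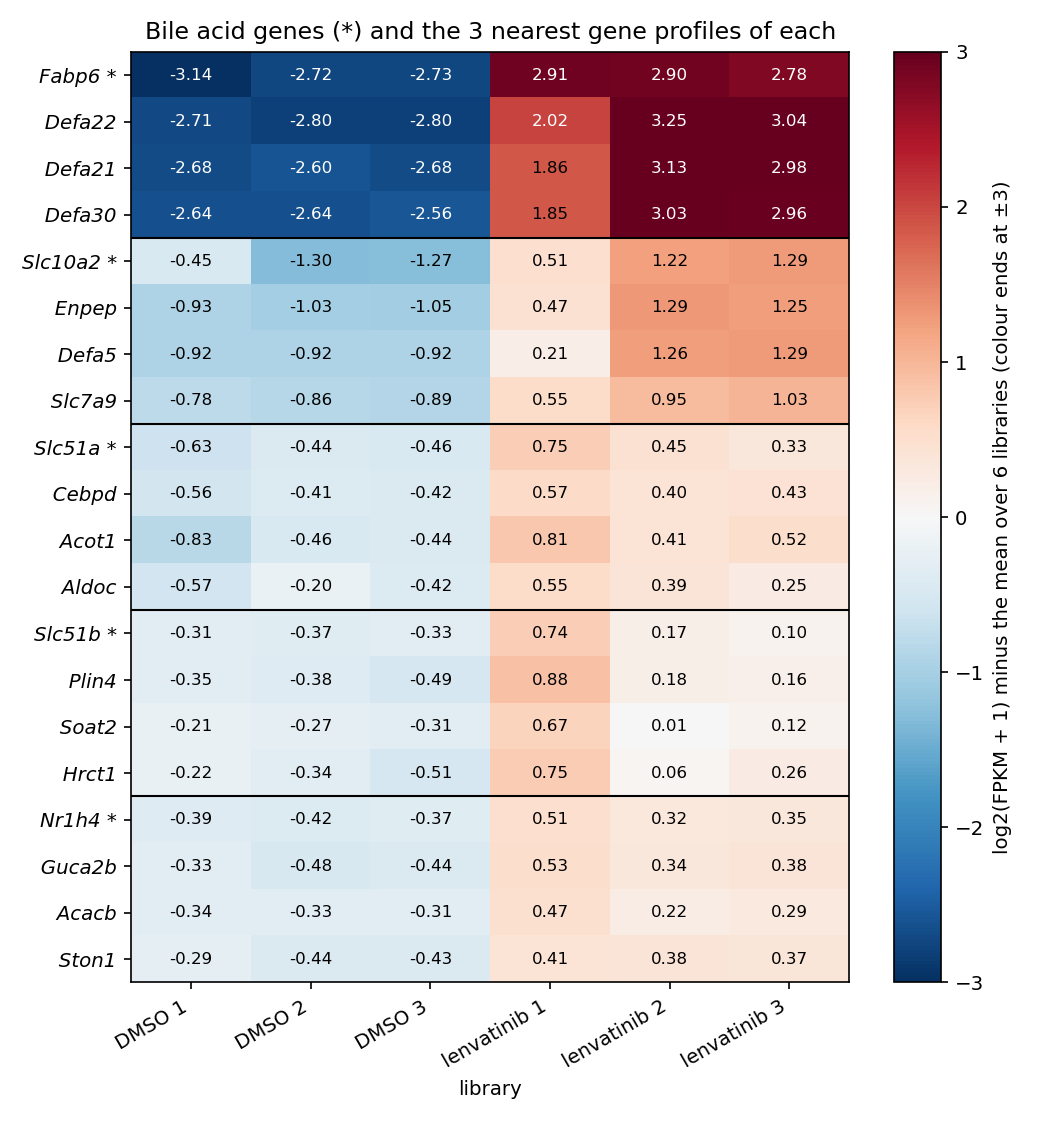
Profiles of the 5 genes above 1 FPKM (starred) and of the 3 nearest genes of each. Columns are libraries, and colour and printed number give log2(FPKM + 1) minus the gene's mean over the 6 libraries. Lenvatinib 1 is the lowest lenvatinib library for Slc10a2 and its neighbours and the highest for Slc51a, Slc51b and Nr1h4.

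Of the other genes of bile acid biology few passed the test. The 4 lists examined held 60 genes (transport and conjugation, synthesis, sensing with the partners of FXR, detoxification), of which 34 reached a mean of 1 FPKM. In limma with Benjamini-Hochberg adjustment over all 11774 genes, 1 of the 34 rose and 0 fell, where 1.10% of all genes tested rose and 0.934% fell. An unadjusted p below 0.05 was found for 12 of the 34, against 22.0% of all genes, and the median log2 difference was 0.11, against −0.07. The groups did not overlap for 10 of the 34 with lenvatinib higher and for 3 with lenvatinib lower, against 10.0% and 17.5% of all genes. By list, 0 of 4 tested genes of transport and conjugation, 0 of 8 of synthesis, 0 of 14 of sensing and 1 of 8 of detoxification passed (1, 2, 6 and 3 at an unadjusted p below 0.05). The count of calls depended on single libraries. Without lenvatinib 1 it was 15 of 34, 13 higher and 2 lower (4479 of all 11774 genes). Without DMSO 1 it was 2, where 270 of all 11774 genes were called. Without DMSO 2, DMSO 3, lenvatinib 2 or lenvatinib 3 it was 0 (8 to 10 at an unadjusted p below 0.05). In those 4 fits 45 to 58 of all genes were called. With libraries 2 and 3 averaged it was 0, where 6 of the 34 had an unadjusted p below 0.05. Of all 11774 genes, 4 were called in that fit and 651 had an unadjusted p below 0.05.

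The gene that rose was Ugt1a6a, an enzyme that attaches glucuronic acid to drugs and other lipophilic compounds. It rose from 21.2 ± 2.25 to 33.9 ± 1.23 FPKM (SD, n = 3 each; log2 difference 0.66, SE 0.0872; limma adjusted p = 0.0215), with every lenvatinib library above every DMSO library. It passed in 8 of 15 alternatives (adjusted p = 0.00432 to 0.439). Genes of this locus share exons, so reads can be split among them. Among the transporters, Abcc3, an exporter of conjugated bile acids on the blood side, had the highest level, at 81.7 ± 1.76 and 97.9 ± 20.9 FPKM (SD, n = 3 each; limma adjusted p = 0.393). Lenvatinib 1 (73.8 FPKM) lay below every DMSO library, and lenvatinib 2 and 3 (109 and 111 FPKM) lay above. Abcc3 passed in 1 of 15 alternatives, without lenvatinib 1 (log2 difference 0.42, limma adjusted p = 0.00233), where 4479 of all 11774 genes passed. Abcb11 and Slc10a1, the bile acid carriers of hepatocytes, were at or below 0.0131 FPKM in all 6 libraries. In the synthesis list Scp2, a sterol carrier, was highest and measured 64.4 ± 4.46 and 69.9 ± 6.71 FPKM (SD, n = 3 each; limma adjusted p = 0.471). Of its 8 tested genes, 2 were higher without overlap and 0 lower, against 10.0% and 17.5% of all genes. Cyp27a1, 1 of these 2, measured 5.24 ± 1.18 and 9.30 ± 0.411 FPKM (SD, n = 3 each; limma adjusted p = 0.0561). Of the enzymes of the liver, Cyp8b1 and Akr1d1 were at or below 0.0270 FPKM and Cyp2c70 was listed at 0 throughout. In the sensing list Hnf4a, a nuclear receptor of enterocytes, measured 207.8 to 229 FPKM with DMSO and 193.7 to 223 FPKM with lenvatinib (limma adjusted p = 0.669). Rxra, the partner with which FXR binds DNA, measured 40.3 ± 0.603 and 45.3 ± 3.48 FPKM (SD, n = 3 each; limma adjusted p = 0.245). S1pr2, a receptor that also binds conjugated bile acids, measured 3.03 ± 0.0587 and 1.69 ± 0.355 FPKM (SD, n = 3 each), lower in every lenvatinib library (limma adjusted p = 0.0560). It passed as lower with median scaling, quantile normalization or the plain variance prior, and without lenvatinib 1. Gata4, a factor of the upper small intestine, was at or below 0.0854 FPKM in every library.

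A pair of sterol exporter genes lay under the level filter and are named here after their values were seen. Abcg5 and Abcg8 encode the pair that returns plant sterols and cholesterol to the lumen. Abcg5 stood at 0.0109, 0.0628 and 0.0426 FPKM in the DMSO libraries, against 0.726, 1.47 and 1.56 FPKM in the lenvatinib libraries (11 reads in all against 351). Abcg8 stood at 0.0140, 0.00673 and 0.00685 FPKM in the DMSO libraries, against 0.390, 1.10 and 1.28 FPKM in the lenvatinib libraries (4 reads against 403). The groups did not overlap for either, and lenvatinib 1 was the lowest lenvatinib library for both, as for Slc10a2. Abcg5 and Abcg8 were not in the main test. With the filter lowered to a mean of 0.1 FPKM, their limma adjusted p was 0.0288 and 0.077. They reached that filter only through the lenvatinib libraries and were picked by their values, so nothing is read from these p-values. The fatty acid binding protein family to which Fabp6 belongs had no other gene that passed: 0 of 3 tested did in limma, and 0 of 3 had an unadjusted p below 0.05. Fabp2, the general intestinal member, stood at 406, 535 and 540.5 FPKM in the DMSO libraries, against 302, 479 and 462 FPKM in the lenvatinib libraries (limma adjusted p = 0.444), with overlapping groups. Fabp1 stayed at or below 0.668 FPKM.

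**Figure D5:**
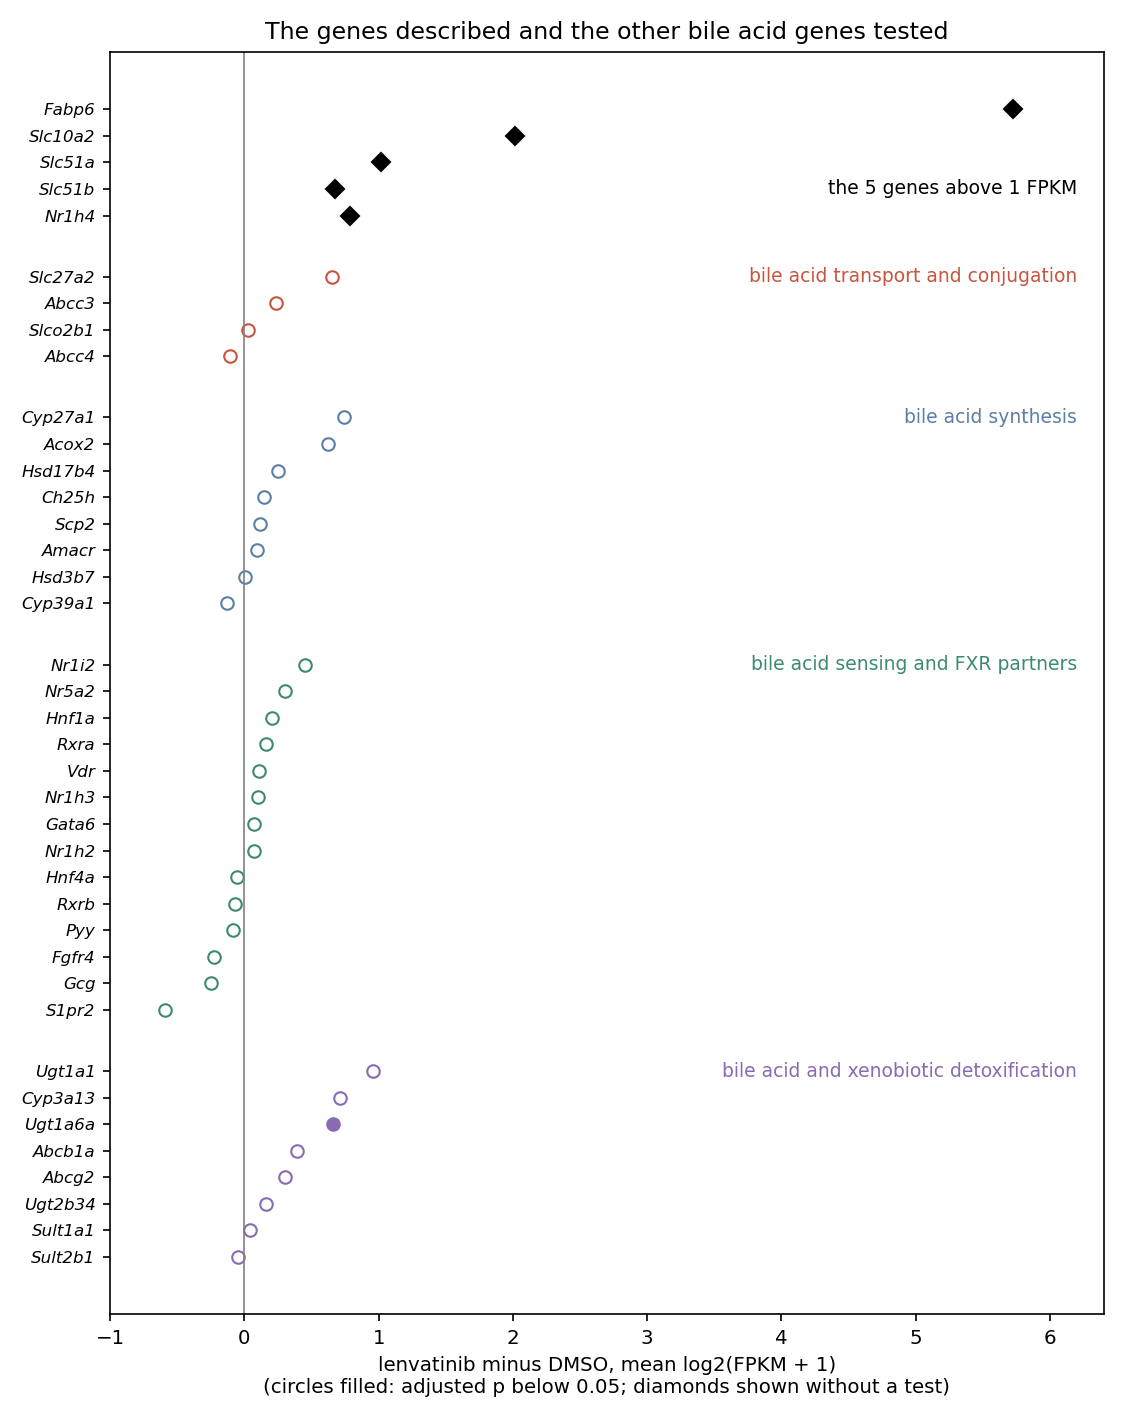
Difference in mean log2(FPKM + 1), lenvatinib minus DMSO, for the 5 genes above 1 FPKM (diamonds, without a test) and the 34 tested genes of the 4 bile acid lists (circles, filled where the limma adjusted p is below 0.05). Fabp6 lies at 5.73 and Slc10a2 at 2.01, and Ugt1a6a is the only filled circle.

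Several markers of small intestinal epithelium were higher in the same libraries as Fabp6 and Slc10a2. Of 8 tested ileal enterocyte genes 4 rose and 0 fell (Amn, Naaladl1, Enpep and Slc7a9), and all 8 were higher without overlap. Of all 11774 genes tested, 1.10% rose and 0.934% fell, and 10.0% were higher and 17.5% lower without overlap. Naaladl1, a peptidase gene, went from 0.890 ± 0.563 to 17.1 ± 7.03 FPKM (SD, n = 3 each; limma adjusted p = 0.0153; 0.000882 to 0.355 over 15 alternatives). The summed level of the 12 listed genes was 270 to 320 FPKM with DMSO and 431 to 516 FPKM with lenvatinib. Most of that sum in every library came from Clec2h and Mep1a, which did not pass (limma adjusted p = 0.0608 and 0.147). Clec2h measured 146 ± 28.2 and 239 ± 11.9 FPKM, and Mep1a 130 ± 2.47 and 199 ± 46.2 FPKM (SD, n = 3 each). Enpp7 was listed at 0 in all 6 libraries. Of 11 tested genes of the proximal small intestine 3 rose and 0 fell (Apoa1, Mttp and Sis). All 3 had a DMSO mean under 1 FPKM, and of the 8 tested genes at or above that level in DMSO 0 rose. Of the 11, 8 were higher without overlap and 1 was lower, Cybrd1. It measured 1.28, 1.83 and 1.58 FPKM with DMSO and 0.893, 0.978 and 0.773 FPKM with lenvatinib (limma adjusted p = 0.106). The 16 listed genes summed to 481 to 625 FPKM with DMSO and 417 to 699 FPKM with lenvatinib, most of it Fabp2 in every library. Apoa1, an apolipoprotein gene, had the lowest lenvatinib level in library 1, like Slc10a2: 6.16 FPKM, against 40.0 and 40.3 FPKM in libraries 2 and 3. Of the same list, Lct, the lactase gene, stayed at or below 0.0296 FPKM and Slc2a2 at or below 0.0393 FPKM. Of 11 tested Paneth cell genes 8 rose and 0 fell, and 7 of the 8 had a DMSO mean under 1 FPKM. The largest changes were those of the defensin genes Defa24, Defa22, Defa21 and Defa30, whose DMSO means were at most 0.377 FPKM. The list summed to 1693, 62.0 and 65.9 FPKM in the DMSO libraries and 231 to 397 FPKM with lenvatinib. Of its genes 9 were higher without overlap and 2 lower, namely Ang4 and Nod2. Ang4, an antimicrobial angiogenin, had 1672, 51.2 and 55.3 FPKM with DMSO and 6.69, 13.9 and 14.3 FPKM with lenvatinib (limma adjusted p = 0.188). Nod2, a sensor of bacterial wall fragments, had 1.78, 1.74 and 1.82 FPKM with DMSO and 0.734, 1.31 and 1.23 FPKM with lenvatinib (limma adjusted p = 0.144). Over all 9 lists of markers, the FABP family included, 15 of 68 tested genes rose, and 12 of the 15 had a DMSO mean under 1 FPKM, so they reached the level filter only through the lenvatinib libraries. Of the 54 tested genes with a DMSO mean of 1 FPKM or more, 3 rose (Amn, Enpep and Lyz1, the gene of a Paneth cell lysozyme). For this reason these counts describe the lists and support nothing. The count of 15 was 0 with libraries 2 and 3 averaged (25 at an unadjusted p below 0.05) and 8 with a replicate block. Of all 11774 genes, 4 were called with averaging (651 at an unadjusted p below 0.05) and 29 with the block. Without lenvatinib 1, 34 of the 68 rose and 8 fell, where 1160 of all 11774 genes rose and 3319 fell. Parts of these lists had been seen to differ in these libraries before they were chosen. What part the small intestinal markers have in the levels of Fabp6 and Slc10a2 was not tested.

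The other marker lists held no gene that passed. None of 11 tested colon epithelium genes and none of 14 genes of epithelium of any segment passed in limma (2 and 3 at an unadjusted p below 0.05, against 22.0% of all genes). The groups did not overlap for 2 of the 11, both higher with lenvatinib, and for 10 of the 14, 4 higher and 6 lower, where 27.5% of all genes did not overlap. Without lenvatinib 1, 7 of the 11 rose, where 1160 of all 11774 genes rose. The colon epithelium list summed to 8935 to 10793 FPKM with DMSO and 8612 to 12427 FPKM with lenvatinib. The summed level of the list for any segment was 11216 to 11889 FPKM with DMSO and 11363 to 11965 FPKM with lenvatinib. Lgals4, its gene with the highest level, measured 2667 ± 145 and 3539 ± 286 FPKM (SD, n = 3 each; limma adjusted p = 0.0766). None of 7 tested HOX genes of colon position passed (2 at an unadjusted p below 0.05). Of the 7, 2 were lower without overlap, Hoxa10 and Hoxa11, against 17.5% of all genes. Hoxa10 measured 17.8 ± 3.20 and 10.8 ± 0.992 FPKM (SD, n = 3 each; limma adjusted p = 0.0838). Without lenvatinib 1, 3 of the 7 fell (Hoxa9, Hoxa10 and Hoxa11), where 3319 of all 11774 genes fell. Hoxa10 also fell without DMSO 1. The HOX list summed to 48.6 to 55.5 FPKM with DMSO and 45.7 to 47.9 FPKM with lenvatinib. Of the hepatocyte and exocrine pancreas lists, 0 of 3 and 0 of 1 tested genes passed (1 and 0 at an unadjusted p below 0.05). The hepatocyte gene Alb was at or below 0.0996 FPKM in every library, and the pancreatic genes Prss2 and Pnlip were listed at 0. Other genes of the 2 lists were expressed: Ttr measured 10.8 ± 3.62 and 19.6 ± 10.4 FPKM, Tat 3.29 ± 0.857 and 5.63 ± 0.691 FPKM, Cps1 4.31 ± 2.45 and 3.66 ± 0.778 FPKM, and Cela1 33.2 ± 0.618 and 33.3 ± 7.40 FPKM (SD, n = 3 each). Of these only Tat was without overlap of the groups.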

How the data were processed

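RNA of mouse colon was sequenced in 6 libraries, 3 per group. The authors deposited 1 table of FPKM values for 25339 genes, and its 6 columns were matched to samples by group and replicate number. HTSeq and GRCm39 are listed, without a role, per the submitters' processing notes. No aligner, annotation, strand setting or table of gene lengths is given in the sources used here. In every gene above 0 the values were whole multiples of 1 read within 0.01 reads (23951 of 23951), which gave read numbers and depth. The smallest whole numbers that fitted were taken. A gene above 0 in only 1 library fits by construction and was given 1 read, so its read number may be too low. Among the 8 genes, 1 read is worth from 0.00631 FPKM (Slc10a2) to 0.0529 FPKM (Slc51b), which sets the precision of low levels.

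The 11774 genes that reached a mean of 1 FPKM were tested on log2(FPKM + 1) with limma 3.58.1 in R 4.3.3 (trended, robust prior; two-sided; Benjamini-Hochberg; threshold 0.05). The 5 of 8 genes of interest that passed this filter are described without a test, with an SE from the spread within both groups. The genes of interest and the 13 lists were chosen with earlier results of these data known. Named genes are the 8, up to 4 passing genes of the largest change per list or else its gene with the highest mean, and the 3 nearest profiles. Rxra, S1pr2, Fabp1, Ang4, Nod2, Lyz1, Tat, Cps1, the markers near 0, Abcg5 and Abcg8, and the genes of the closing section, were named after their values were seen. So were Cyp27a1, Nr1i2, Clec2h, Mep1a, Cybrd1, Hoxa9, Hoxa10 and Hoxa11. Tested on simulated data (11774 genes, 200 changed), limma recovered 76% of log2 changes of 1 and 97% of 2, with 16 false calls. The simulated libraries were independent, and only genes with a mean log2(FPKM + 1) above 2 were changed. Libraries 2 and 3 of each group were much alike in the data, so these rates do not describe the calls made here. Promoter sequences are from RefSeq (GRCm38.p6), for 7 of the 8 genes. Alternatives changed the pseudocount, filter, scaling, variance prior, block and test, averaged libraries 2 and 3, or left out a library.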

Additional observations from a re-analysis of the deposited data

How the results depend on the processing

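The settings were listed with earlier results of these data known. The log2 differences of Fabp6, Slc10a2, Slc51a, Slc51b and Nr1h4 stayed above 0 in all 10 alternatives run for them. They moved by more than the spread between libraries with a pseudocount of 0.1 (Fabp6 6.25, Slc10a2 2.51) and with median scaling (Nr1h4 0.86). Leaving out single libraries gave 5.59 to 5.80 for Fabp6, 1.86 to 2.29 for Slc10a2, 0.90 to 1.11 for Slc51a, 0.47 to 0.79 for Slc51b and 0.73 to 0.82 for Nr1h4. Calls over all genes (239) were 140 with no filter, 29 with the replicate block and 4 with libraries 2 and 3 averaged, and 45 to 4479 without single libraries. The other bile acid genes (1 call) had 2 with the filter at 0.1 FPKM, median scaling, quantile normalization, the plain variance prior and voom on recovered reads. With median scaling, quantile normalization and the plain variance prior the second was S1pr2, called lower. With the filter at 0.1 FPKM it was Abcg5, called higher. They had 0 with no filter, the replicate block and libraries 2 and 3 averaged (17, 14 and 6 at an unadjusted p below 0.05 in limma), and 0 to 15 without single libraries. The marker lists (15 calls) had 8 with the replicate block, 0 with libraries 2 and 3 averaged and 10 to 42 without single libraries. Fewer samples or degrees of freedom enter the block, averaged and left-out fits, and the cause of the rise without lenvatinib 1 was not tested. Same-numbered libraries had deviations from their group means that correlated weakly and negatively (−0.196, −0.159 and −0.151), and none correlated best with its own number. Libraries 2 and 3 of a group were much alike, so these deviations mostly set library 1 against libraries 2 and 3. They cannot show whether the libraries were paired. Counting of few reads limits Fgf15, Nr0b2 and Gpbar1, which had 0 to 22 reads per library.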

Other observations

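Some genes under the level filter were higher with lenvatinib without overlap, and 3 are given here, named after their values were seen. Others overlapped: Cyp3a11, Cyp3a44 and Cyp24a1 of the detoxification list and Mme, Lct, Slc2a2, Apoc3 and Slc15a1 of the small intestinal lists. Slco1a4, of the transport list, was lower with lenvatinib without overlap (10 reads with DMSO against 1). The share of all genes under the filter without overlap was not computed, so nothing is read from these genes. Cyp3a25, a cytochrome P450 of the bile acid detoxifying family, was listed at 0 in all 3 DMSO libraries and measured 0.104, 0.767 and 0.632 FPKM in lenvatinib 1 to 3. Cubn, the receptor that takes up the vitamin B12 complex in the ileum, stood at 0.188, 0.446 and 0.517 FPKM in the DMSO libraries, against 0.754, 1.84 and 1.74 FPKM in the lenvatinib libraries. Its partner Amn passed the filter and rose from 2.80 ± 0.0437 to 5.57 ± 0.314 FPKM (SD, n = 3 each; limma adjusted p = 0.00539; 0.000962 to 0.298 over 15 alternatives). Slc6a19, an amino acid carrier of the brush border, stood at 0.361, 0.136 and 0.138 FPKM in the DMSO libraries, against 0.467, 1.92 and 1.81 FPKM in the lenvatinib libraries. Cyp3a25, Cubn and Slc6a19 were not in the main test. None of them passed with the filter at 0.1 FPKM (limma adjusted p = 0.162, 0.121 and 0.149). In all 3, lenvatinib 1 was the lowest lenvatinib library, as for Slc10a2.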
